A study of Mus musculus with 8 samples.

Results

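Cadherins, protocadherins and catenins were compared between mutant and wild-type brain endothelial cells (ECs). The genes were all those in the deposited normalized table whose symbol begins with Cdh and a digit, Pcdh, Ctnn, Dsg, or Dsc and a digit. This gave 80 of the 16889 genes in that table. They are 5 type I classical cadherins, 6 type II classical cadherins, 4 other cadherins, 1 desmosomal cadherin, 1 alpha, 21 beta and 22 gamma protocadherins of the clusters on chromosome 18, 11 protocadherins outside the clusters and 9 catenins. The count files held 111 genes with such symbols, and the other 31 were left out because they are not in the table, whose genes all had at least 81 counts summed over the libraries. The lowest totals inside it were 84 counts for *Pcdhac2*, 85 for *Cdh17* and 106 for *Dsc2*. The highest outside it were 72 for *Pcdha5*, 68 for *Pcdh20* and 61 for *Cdh8*.

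The study asked how an activating change in the kinase MAP2K1 alters gene expression in ECs of the mouse brain. The mutant pups carried *R26* GT-Map2k1-GFP/+, an allele at the *Rosa26* locus that makes MAP2K1 K57N and GFP once Cre has removed a stop cassette, together with Tg-Cdh5CreER+/−, a tamoxifen-dependent Cre driven in endothelium by *Cdh5* sequence. The controls are labelled wild type and were chosen from the same litters. Tamoxifen was given to the litters on postnatal day 1 (P1), brains were taken at P9, both strains were kept on C57BL/6J, and ECs were collected with beads against CD31, so the cells came from whole brains and only part of the mutant ECs carried a recombined allele. Each group held 4 pups with 1 poly(A) RNA sequencing library each, of 24833373 to 34196955 counts in mutant and 28146348 to 32208421 counts in wild-type ECs. *Map2k1* had 12660 to 18687 normalized counts in mutant and 1502 to 1758 in wild-type libraries, so all 8 labels matched this gene. Normalized counts here are counts divided by library size after scaling by the trimmed mean of M values (TMM), set to the mean library size. All 10 endothelial markers were present, and their summed normalized counts were 299205 to 358475 in mutant and 318812 to 387348 in wild-type libraries.

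Cadherins are calcium-dependent adhesion proteins whose outer domains bind the same or a like cadherin on the next cell. Inside the cell the classical cadherins bind p120-catenin and beta-catenin, and beta-catenin binds alpha-catenin, which joins the complex to actin. VE-cadherin holds the junctions of endothelium together, and N-cadherin lies outside those junctions and can bind mural cells. Beta-catenin is also the coactivator of Wnt signalling, which brain endothelium needs to form its barrier. Protocadherins are best known from neurons, where the clustered genes give cells a surface identity.

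Of the 80 genes 79 had enough counts to be tested, and *Cdh17*, a cadherin of liver and gut, did not. A gene was called when its Benjamini-Hochberg adjusted p in edgeR's quasi-likelihood test was under 0.05 and its absolute log2 fold change, mutant over wild type, was over 1. In all, 21 genes were called (26.6%), against 14.0% of the 16887 genes tested. Of these 8 were higher and 13 lower in mutant ECs, against 5.90% of all genes called higher and 8.05% called lower. With the adjusted p alone, 35 passed (44.3%), 19 higher and 16 lower, against 44.4% of all genes. The median log2 fold change was 0.04 over the 79 genes and -0.02 over all genes tested. These are bulk samples, in which fewer cells of a type and less RNA per cell cannot be told apart.

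The calls lay mainly outside the protocadherin clusters. Outside them 20 of 35 genes tested were called (57.1%), 7 higher and 13 lower, and inside them 1 of 44 (2.27%). The 4 mutant libraries did not overlap the 4 wild-type libraries in 36 of the 79 genes tested (45.6%), against 42.5% of all genes tested. Among the called genes *Ctnna3* and *Cdh15* overlapped. Of the called genes, *Dsc2* met the count minimum through its mutant libraries alone and *Pcdh11x* through its wild-type libraries alone, so these 2 calls are given as a description. Other sparse genes called lower, such as *Cdh1*, *Cdh20* and *Pcdh15*, met it in all wild-type libraries and in only part of the mutant libraries. They too entered the test through their higher group, and their calls are likewise a description. The codes in the labels share their first 4 digits between replicates 1 and 2, and differ from those in replicates 3 and 4, in both groups. Compared within each of these 3 sets of codes, 20 of the 21 called genes had the same direction throughout, and *Cdh15* did not. The genes were called in these same libraries, and 19 of them had groups without overlap. For those 19 the shared direction was fixed in advance, so this count is a description.

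**Figure D1:**
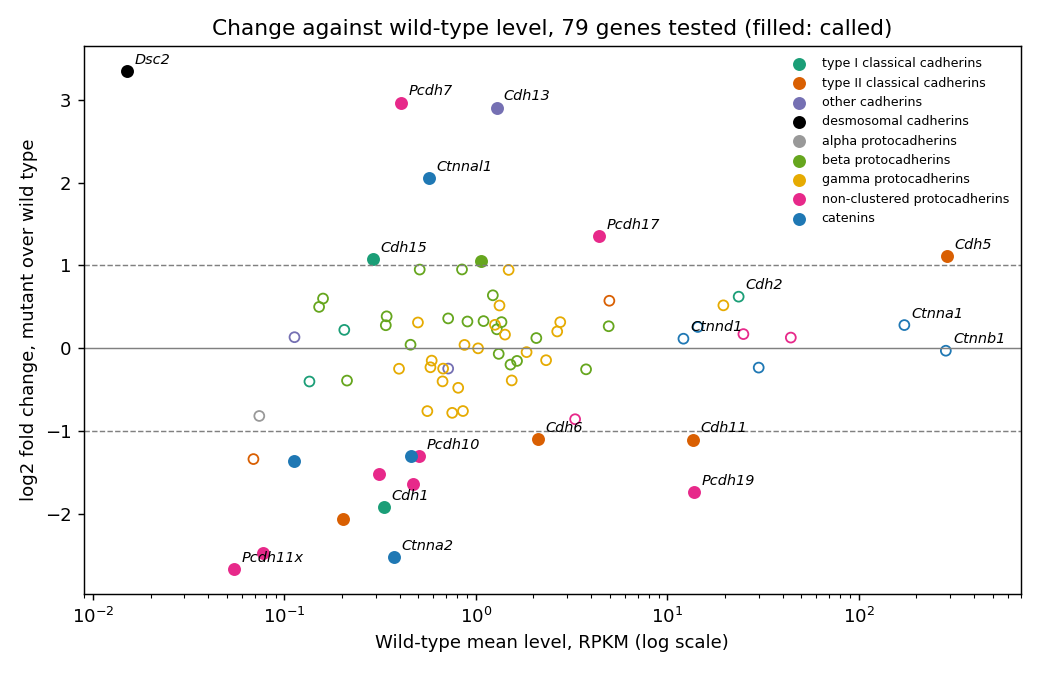
Log2 fold change of mutant over wild type (vertical axis) against the mean wild-type level in RPKM (horizontal axis, log scale) for the 79 genes tested, coloured by family, filled where called and open otherwise. The dashed lines lie at log2 fold changes of -1 and 1. *Cdh5* is the called gene of highest level (291 RPKM), and 14 of the 21 called genes lie under 1 RPKM, 10 of them lower in mutant ECs.

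To compare levels between genes, counts were divided by exon length and given as RPKM, reads per kilobase scaled by the size of the library. In wild-type ECs *Cdh5* had 291 ± 20.6 RPKM (SD, n = 4) and *Ctnnb1* 285 ± 15.1 (SD, n = 4), a gap smaller than their spread. *Ctnna1* followed with 173 ± 9.999, then *Pcdh1* with 44.2 ± 2.81, *Ctnnbip1* with 30.03 ± 1.52, *Pcdh12* with 25.0 ± 2.73 and *Cdh2* with 23.6 ± 0.726 RPKM (SD, n = 4 each). *Pcdh12* and *Cdh2* differed by less than the spread of *Pcdh12*. In all, 12 genes had over 10 RPKM in wild-type ECs, 26 had 1 to 10 and 42 had less than 1. Of the called genes 3 lay in the first of these classes, 4 in the second and 14 in the last. Where exons of 2 genes overlap, these levels depend on the length used. *Ctnnd1* shared 61.2% of its exon bases with another gene and had 12.1 RPKM over its whole length and 31.3 over its own bases, an alternative chosen after the data were seen.

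*Cdh5* encodes VE-cadherin and lies on chromosome 8 of GRCm38 from 104101625 to 104144511. The 4 mutant libraries had 93633, 76919, 62937 and 78106 normalized counts and the 4 wild-type libraries 37215, 36608, 32465 and 38331. The groups were apart, and the mutant libraries spread more widely than the wild-type libraries. The transcript rose 2.15-fold in mutant ECs (log2 fold change 1.11, SE 0.12, adjusted p = 6.04e-05). Since the mutant pups carry a CreER transgene driven by *Cdh5* sequence, any transcribed *Cdh5* sequence in it would be counted with the native gene. How much of the rise comes from it was not tested, and the make-up of the transgene is not given in the sources used here.

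*Cdh2*, which encodes N-cadherin, had 8792, 10647, 7314 and 7943 normalized counts in mutant and 5719, 5837, 5470 and 5512 in wild-type libraries. The groups did not overlap, and the wild-type libraries lay close together. Its rise of 1.54-fold (log2 fold change 0.62, SE 0.11, adjusted p = 0.00106) passed the test and not the fold limit.

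The catenins that bind these cadherins moved less than *Cdh5*. *Ctnnb1*, the gene of beta-catenin, had 43427, 43078, 41956 and 43212 normalized counts in mutant and 44509, 44747, 40425 and 45644 in wild-type libraries. The groups overlapped, and the log2 fold change was -0.03 (SE 0.07, adjusted p = 0.751). *Ctnna1*, the gene of the widely expressed alpha-catenin, had 24936, 23800, 21070 and 22227 against 19514, 19870, 17395 and 19052 normalized counts. Its lowest mutant library was above its highest wild-type library, and it rose by a log2 fold change of 0.28 (SE 0.08, adjusted p = 0.0161). *Ctnnd1*, the gene of p120-catenin, which keeps cadherins at the cell surface, had 2488 to 3211 normalized counts in mutant and 2513 to 2753 in wild-type libraries, with a log2 fold change of 0.11 (SE 0.09, adjusted p = 0.300).

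Per length, the ratio of *Cdh5* to *Ctnnb1* was 2.66, 2.21, 1.85 and 2.23 in the mutant libraries and 1.03, 1.01, 0.992 and 1.04 in the wild-type libraries. Over whole exon length the 2 transcripts were thus near the same level in each wild-type library, and *Cdh5* was the higher in each mutant library. With exon bases shared with genes of either strand left out of its length, *Ctnnb1* had 336 RPKM in wild-type ECs, above the 291 of *Cdh5*. These were 15.1% of its exon bases, and only 0.443% were shared on the same strand. Which of the 2 genes is higher in wild-type ECs thus depends on the length used. The ratio of *Cdh5* to *Ctnna1* was 2.97 ± 0.294 in mutant and 1.68 ± 0.0659 in wild-type ECs (SD, n = 4). Among the cadherin genes outside the protocadherins, *Cdh5* made up 90.8 ± 1.09% of the summed RPKM in mutant and 85.8 ± 1.10% in wild-type ECs (SD, n = 4). The share of *Cdh2* was 5.32 ± 0.866% and 6.99 ± 0.380%, although its own level was higher in mutant ECs. The *Cdh5* values in these ratios include any reads from the transgene.

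**Figure D2:**
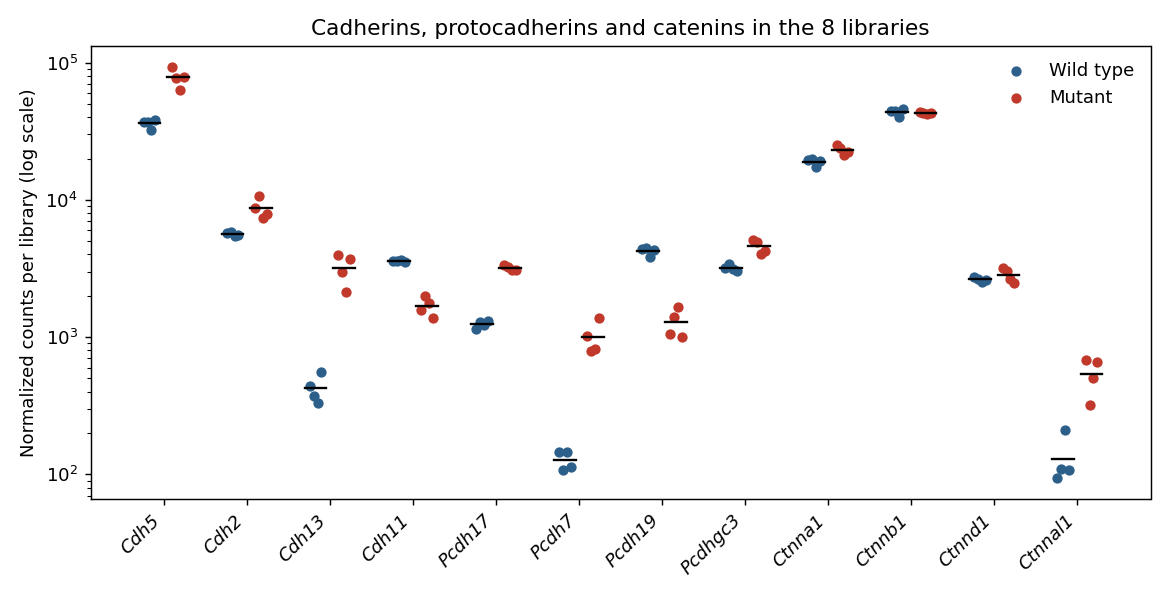
Normalized counts (vertical axis, log scale) of 12 genes in each of the 4 wild-type (blue) and 4 mutant (red) libraries, with the group mean as a black bar. The groups overlap for *Ctnnb1* and *Ctnnd1* and are apart for the other 10 genes, of which *Cdh11* and *Pcdh19* are lower in mutant ECs.

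*Cdh13* rose more than any other classical or atypical cadherin called here. It encodes T-cadherin, which is held to the membrane by a lipid anchor and has no tail for catenins, and lies on chromosome 8 from 118283733 to 119324921. The mutant libraries had 3971, 2976, 2137 and 3687 normalized counts and the wild-type libraries 439, 375, 331 and 561. Even the lowest mutant library was several times the highest wild-type library. The rise was 7.49-fold (log2 fold change 2.91, SE 0.22, adjusted p = 7.1e-06). Its share of the cadherin RPKM was 1.38 ± 0.203% in mutant and 0.377 ± 0.0705% in wild-type ECs (SD, n = 4).

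*Cdh11*, a type II cadherin best known from mesenchyme and bone, moved the other way. It had 1570, 1975, 1782 and 1368 normalized counts in mutant and 3588, 3599, 3641 and 3552 in wild-type libraries. The wild-type libraries were nearly equal, and all mutant libraries lay well below them. The transcript was 2.15-fold lower in mutant ECs (log2 fold change -1.10, SE 0.10, adjusted p = 2.76e-05), and without mutant replicate 4 the log2 fold change was -0.99, just inside the fold limit. Its share of the cadherin RPKM was 0.944 ± 0.238% against 4.04 ± 0.290% (SD, n = 4). Since fibroblasts and mural cells also use *Cdh11*, their markers were read beside it. Of 6 fibroblast markers 3 rose and none fell at the adjusted p, and of 8 pericyte markers 2 rose and none fell. Of 6 smooth muscle markers 1 rose and none fell. Over all genes tested 21.5% rose and 22.9% fell. The summed normalized counts of each list overlapped between the groups. They were 26843 to 34162 in mutant and 20276 to 29476 in wild-type libraries for fibroblasts, and 21424 to 34351 and 19127 to 34432 for pericytes. For smooth muscle they were 2494 to 6233 and 2898 to 6903. The part of these cells in the fall of *Cdh11* was not tested.

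The other type II cadherins were measured at lower levels. *Cdh6*, known from kidney and neural crest, had 64.4, 73.9, 82.9 and 85.1 normalized counts in mutant and 126, 176, 193 and 161 in wild-type libraries. The groups did not overlap, and it fell (log2 fold change -1.10, SE 0.18, adjusted p = 0.000697), by just under the fold limit without mutant replicate 1 (-0.999). *Cdh24* had 484 to 725 against 374 to 463 normalized counts and rose by a log2 fold change of 0.57 (SE 0.14, adjusted p = 0.00665). *Cdh20* had 1.74 to 12.2 against 13.7 to 41.4 normalized counts and fell (log2 fold change -2.07, SE 0.56, adjusted p = 0.0125). *Cdh10* had 3.79 to 11.03 against 3.16 to 50.02 (log2 fold change -1.34, SE 0.69, adjusted p = 0.138), and without wild-type replicate 4 its log2 fold change was -1.68 (adjusted p = 0.0375). Over the 6 type II cadherins the median log2 fold change was -1.10, although their summed level, which is nearly all *Cdh5*, was 641 ± 100 RPKM in mutant and 312 ± 19.5 RPKM in wild-type ECs (SD, n = 4).

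Among the type I cadherins, *Cdh1*, the gene of the epithelial E-cadherin, had 7.58, 8.82, 9.95 and 19.97 normalized counts in mutant and 34.0, 43.1, 72.4 and 30.5 in wild-type libraries. All mutant libraries lay below all wild-type libraries, and it fell (log2 fold change -1.92, SE 0.40, adjusted p = 0.00296). *Cdh15*, the gene of M-cadherin of muscle, had 68.2, 65.1, 66.3 and 36.5 in mutant and 19.3, 18.8, 32.8 and 41.0 in wild-type libraries. Mutant replicate 4 lay within the wild-type range, apart from the other 3. The call (log2 fold change 1.07, SE 0.32, adjusted p = 0.0195) was lost without wild-type replicate 1 (adjusted p = 0.0539) and without wild-type replicate 2 (adjusted p = 0.0566). *Cdh3* and *Cdh4* did not pass the test, with log2 fold changes of -0.40 (SE 0.54, adjusted p = 0.574) and 0.22 (SE 0.28, adjusted p = 0.555).

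*Dsc2* encodes desmocollin, a cadherin of desmosomes, junctions that epithelia and heart muscle have and endothelium lacks. It was the only desmosomal cadherin, of 9 with a matching symbol, that reached the normalized table. It had 24.0, 25.4, 15.5 and 34.7 normalized counts in mutant and 5.51, 0.938, 0.862 and 2.10 in wild-type libraries. The counts were few in both groups, and the gene entered the test through its mutant libraries alone, so that its separation is a description (log2 fold change 3.35, SE 0.52, adjusted p = 0.000532). Other desmosome genes shared no direction. *Pkp2*, for plakophilin, rose from 52 to 78 normalized counts in wild-type to 136 to 251 in mutant libraries (log2 fold change 1.62, SE 0.23, adjusted p = 0.000324), while *Dsp*, for desmoplakin, fell (log2 fold change -0.87, SE 0.17, adjusted p = 0.00215). *Jup*, for plakoglobin, which also sits in VE-cadherin junctions, had 7071 to 8793 against 6681 to 8301 normalized counts (log2 fold change 0.03, SE 0.10, adjusted p = 0.825).

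The 11 protocadherins outside the clusters held the most calls of any family, 2 higher and 6 lower, against 5.90% and 8.05% of all genes. The median log2 fold change of these 11 was -1.30. *Pcdh17* and *Pcdh19*, both of the delta protocadherins, were the called genes of highest level among them and moved in opposite directions. Their promoters are shown because, of the called genes with the highest counts, only they had a promoter sequence here. *Cdh5*, *Cdh13*, *Cdh11* and *Pcdh7* had none. Promoter sequences from RefSeq (GRCm38.p6) were held for 23 of the 80 genes. Each covers 250 bases before the transcript start and the first 50 after it and is written 5′ to 3′ on the strand of the gene, with matches to GGAA, the core of sites bound by ETS factors, or its complement TTCC in capitals. The *Pcdh17* promoter is at chr14:84443313-84443612 on the plus strand and the *Pcdh19* promoter at chrX:133688944-133689243 on the minus strand.
Pcdh17: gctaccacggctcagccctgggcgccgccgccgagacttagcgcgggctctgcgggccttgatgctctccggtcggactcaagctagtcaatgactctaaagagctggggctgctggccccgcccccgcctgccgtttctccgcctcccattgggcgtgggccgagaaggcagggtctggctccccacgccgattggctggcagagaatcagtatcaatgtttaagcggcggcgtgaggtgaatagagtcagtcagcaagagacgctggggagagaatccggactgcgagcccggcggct
Pcdh19: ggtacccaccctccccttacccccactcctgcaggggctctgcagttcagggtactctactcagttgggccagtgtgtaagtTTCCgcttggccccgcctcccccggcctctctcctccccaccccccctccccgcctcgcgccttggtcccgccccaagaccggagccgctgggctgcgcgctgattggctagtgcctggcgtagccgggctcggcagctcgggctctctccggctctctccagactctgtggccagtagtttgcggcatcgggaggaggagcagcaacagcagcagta

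Both windows were rich in G and C, with 65.0% in *Pcdh17* and 67.7% in *Pcdh19*. The *Pcdh17* window held no GGAA on either strand and the *Pcdh19* window held 1. Among all 32851 promoters of this length 96.0% held it, and among the 29 promoters of these genes 24 did (82.8%). On either strand, neither window held CAGGTG, the E box bound by Snail and Zeb proteins, which 20.2% of all promoters held. Neither held the letters CTTTGA of many TCF/LEF sites, which 16.0% of all promoters held. A match or its absence describes only these letters in this window.

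*Pcdh17* had 3329, 3246, 3063 and 3078 normalized counts in mutant and 1141, 1277, 1234 and 1318 in wild-type libraries. Both groups were tight and far apart. It rose 2.56-fold (log2 fold change 1.36, SE 0.07, adjusted p = 6.9e-07), to 11.3 ± 0.462 from 4.41 ± 0.269 RPKM (SD, n = 4). *Pcdh7*, another delta protocadherin, had 1018, 789, 815 and 1373 in mutant and 144, 108, 146 and 113 in wild-type libraries. The lowest mutant library was over 5 times the highest wild-type library, and the rise was 7.83-fold (log2 fold change 2.97, SE 0.20, adjusted p = 4.17e-06). A gene of the opposite strand covers 21.1% of its exon bases, and without strand in the counting the reads of the 2 strands could not be told apart.

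*Pcdh19*, an X-linked gene whose loss causes an epilepsy in people, had 1053, 1404, 1669 and 1009 normalized counts in mutant and 4408, 4478, 3860 and 4321 in wild-type libraries. No mutant library came near the wild-type range. It was 3.32-fold lower in mutant ECs (log2 fold change -1.73, SE 0.15, adjusted p = 1.77e-05) and went from 13.8 ± 0.899 RPKM in wild-type to 4.14 ± 1.01 in mutant ECs (SD, n = 4), from the tenth place among the 80 genes to the sixteenth. *Pcdh10* had 80.8, 103, 96.2 and 105 against 232, 281, 248 and 190 normalized counts and fell with no overlap (log2 fold change -1.30, SE 0.16, adjusted p = 0.000134). The other delta protocadherins called lower, *Pcdh8*, *Pcdh9* and *Pcdh11x*, averaged 41.7, 94.6 and 22.6 normalized counts in wild-type ECs and had log2 fold changes of -1.51, -1.64 and -2.67. *Pcdh15*, which forms the tip links of hair cells, had a wild-type mean of 54.2 and a log2 fold change of -2.47.

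Over whole exon length, *Pcdh1* and *Pcdh12* had the highest levels of the protocadherins, and neither passed the test. *Pcdhgc3* had 59.3 RPKM in wild-type ECs, above *Pcdh1*, when exon bases shared with genes of either strand were left out of its length. These were 66.9% of its exon bases, and 38.5% were shared on the same strand. Its place beside *Pcdh1* thus depends on how the counting used strand, which is not given. *Pcdh1* had 11789 to 13821 normalized counts in mutant and 10475 to 12185 in wild-type libraries (log2 fold change 0.13, SE 0.08, adjusted p = 0.208). *Pcdh12*, an endothelial protocadherin also called VE-cadherin 2, had 4136 to 5849 against 3904 to 5078 (log2 fold change 0.17, SE 0.12, adjusted p = 0.275). *Pcdh18* had 191, 290, 513 and 166 in mutant and 510, 668, 561 and 358 in wild-type libraries. Mutant replicate 3 lay within the wild-type range (log2 fold change -0.86, SE 0.33, adjusted p = 0.0547), and without it the log2 fold change was -1.28 (adjusted p = 0.00300). Without wild-type replicate 4 it was -1.005 (adjusted p = 0.0391). With all 8 libraries *Pcdh18* passed the adjusted p when the replicate number (adjusted p = 0.00586) or the first digits of the label code (adjusted p = 0.00679) entered the edgeR fit as a block.

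Of the 9 catenin genes 1 was called higher and 3 lower, against 5.90% and 8.05% of all genes tested. *Ctnnal1*, the gene of alpha-catulin, a relative of alpha-catenin, had 681, 321, 505 and 660 normalized counts in mutant and 93.7, 109, 210 and 107 in wild-type libraries. All mutant libraries were above wild-type replicate 3, which stood apart from the other 3. It rose 4.17-fold (log2 fold change 2.06, SE 0.30, adjusted p = 0.000365). *Ctnnbip1*, an inhibitor that keeps beta-catenin from TCF factors, had 1722 to 2427 against 2335 to 2607 normalized counts (log2 fold change -0.23, SE 0.10, adjusted p = 0.0811). It passed with the replicate number as a block (adjusted p = 0.0312 in edgeR) and with the label code as a block (adjusted p = 0.0206). *Ctnnbl1*, a nuclear protein of the splicing machinery, rose by a log2 fold change of 0.26 (SE 0.10, adjusted p = 0.0498), a result at the limit of the test.

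The 3 catenins called lower are genes of neurons and heart. *Ctnna2*, the neuronal alpha-catenin, had 16.4, 15.4, 8.84 and 13.02 normalized counts in mutant and 89.1, 50.6, 120 and 49.4 in wild-type libraries, without overlap (log2 fold change -2.52, SE 0.36, adjusted p = 0.000319). *Ctnnd2*, the delta-catenin of neurons, had 15.2 to 53.0 against 56.8 to 115 (log2 fold change -1.30, SE 0.35, adjusted p = 0.0128). *Ctnna3*, the alpha-catenin of heart muscle, had 6.31, 5.51, 18.8 and 6.95 in mutant and 31.2, 25.3, 30.2 and 9.47 in wild-type libraries. Mutant replicate 3 overlapped the wild-type range, and the call (log2 fold change -1.36, SE 0.48, adjusted p = 0.0419) was lost in 6 of the 8 fits that left out a library.

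Most of the genes called lower were sparse. Of the 13, all but *Cdh11* and *Pcdh19* had a wild-type mean under 300 normalized counts, from 22.6 to 238. These 11 genes are *Cdh1*, *Cdh6*, *Cdh20*, *Ctnna2*, *Ctnna3*, *Ctnnd2*, *Pcdh8*, *Pcdh9*, *Pcdh10*, *Pcdh11x* and *Pcdh15*, and their log2 fold changes ran from -2.67 to -1.10. Summed, they had 240, 310, 304 and 356 normalized counts in the mutant and 837, 835, 1120 and 668 in the wild-type libraries. The genes were chosen as called lower in these same libraries, so the lower mutant sums follow from the choice. Wild-type replicate 3 was the highest wild-type library in 7 of the 11.

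Markers of other brain cells were read beside them. The 10 neuron markers, 9 of them tested, summed to 908 to 1382 normalized counts in mutant and 1343 to 2700 in wild-type libraries, with wild-type replicate 3 the highest and the highest mutant library just above the lowest wild-type library. Of the 9, 5 were called lower and 1, *Nefl*, was called higher. All 9 markers of the oligodendrocyte lineage were called lower, with sums of 1543 to 2589 in mutant and 3866 to 9981 in wild-type libraries, and all 7 red blood cell markers were called lower, with sums of 2650 to 8520 and 15868 to 27517. No marker of these 3 lists was at 0 in a whole group. Of 8 astrocyte markers 2 fell and 1 rose at the adjusted p. The one that rose, *Gja1*, with 17352 to 21645 normalized counts in mutant and 9787 to 11827 in wild-type libraries, set the list's sums of 18992 to 22448 and 11434 to 13542. None of the 7 microglia markers passed the test, none of the 6 smooth muscle markers was called, and of 6 choroid plexus and ependyma markers 1 was called higher and 3 lower. Like the neuron markers, the microglia, smooth muscle, and choroid plexus and ependyma markers had their highest sums in wild-type replicate 3. Of the 10 endothelial markers none was called, 2 rose and 3 fell at the adjusted p, and their median log2 fold change was -0.03. The part of other cells in the 11 falls was not tested. Without wild-type replicate 3, 12 genes were called lower in place of 13.

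**Figure D3:**
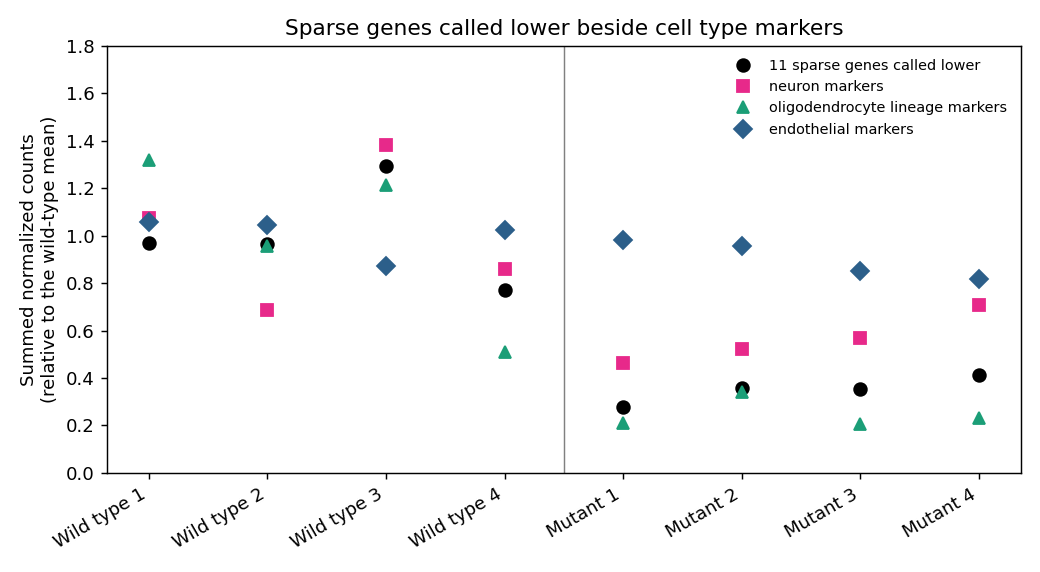
Summed normalized counts of the 11 sparse genes called lower, of neuron, oligodendrocyte lineage and endothelial markers in each library (horizontal axis), divided by the mean of the 4 wild-type libraries (vertical axis, from 0). The 11 genes were chosen as called lower in these same libraries. They lie at 240 to 356 normalized counts in mutant and 668 to 1120 in wild-type libraries, which follows from the choice. The oligodendrocyte sums are lower in every mutant library, and the neuron sums (908 to 1382 and 1343 to 2700) nearly so. Wild-type replicate 3 is the highest for the genes and for neuron markers, and wild-type replicate 1 for oligodendrocyte lineage and endothelial markers.

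The clustered protocadherins lie in tandem on the plus strand of chromosome 18. The alpha cluster (14 genes, from 36930184 to 37187661) left only *Pcdhac2* in the normalized table, with 3.47 to 11.4 normalized counts in mutant and 5.26 to 25.0 in wild-type libraries (log2 fold change -0.82, SE 0.57, adjusted p = 0.267). The beta cluster (22 genes, from 37264938 to 37524479) and the gamma cluster (22 genes, from 37661793 to 37841873) were nearly complete in it, with 21 and 22 genes. Beta genes are single-exon genes. Gamma genes each join a first exon of their own to shared last exons, and 31.5% to 66.8% of their exon bases were shared with another gene of the same strand. Their counts ranged from 29 to 4902 in a library, so reads on the shared exons were not given to every gene. How the authors' counting treated such reads is not given in the sources used here, and their values hold that uncertainty.

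Over the 44 clustered genes 11 passed the adjusted p (25.0%), 8 higher and 3 lower, against 44.4% of all genes tested, and the median log2 fold change was 0.14. The share that passed and was higher was 18.2%, against 21.5% of all genes. Per length, the beta genes summed to 30.7 ± 2.02 RPKM in mutant and 25.9 ± 1.83 in wild-type ECs, and the gamma genes to 54.4 ± 4.95 and 44.5 ± 1.97 (SD, n = 4). In the beta cluster 16 of 21 log2 fold changes were above 0, and 4 genes passed the adjusted p as higher (19.0%), near the 21.5% of all genes. *Pcdhb5*, the only called gene of the clusters, had 213, 272, 225 and 211 normalized counts in mutant and 135, 89.1, 98.3 and 122 in wild-type libraries. The groups did not overlap, and the log2 fold change of 1.05 (SE 0.17, adjusted p = 0.000629) lay close to the fold limit. It was 0.99 with upper quartile scaling, 0.96 without mutant replicate 2 and 0.96 without wild-type replicate 2. *Pcdhb10* and *Pcdhb13* rose by log2 fold changes of 0.95 each (SE 0.17 and 0.23, adjusted p = 0.00131 and 0.00653), and *Pcdhb9* by 0.64 (SE 0.16, adjusted p = 0.00756). The beta gene of highest level, *Pcdhb17*, had 746 to 888 against 587 to 786 normalized counts (log2 fold change 0.27, SE 0.11, adjusted p = 0.0650). It passed with the replicate number as a block (adjusted p = 0.0241 in edgeR) and with the label code as a block (adjusted p = 0.0157).

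The gamma cluster was mixed. *Pcdhgc3*, a gene of the end of the cluster, had 5125, 4919, 4008 and 4256 normalized counts in mutant and 3203, 3381, 3159 and 3044 in wild-type libraries. The groups did not overlap, and it rose 1.43-fold (log2 fold change 0.52, SE 0.09, adjusted p = 0.000884). It was the main gamma gene in both groups, with 51.6 ± 1.44% of the summed gamma RPKM in mutant and 44.1 ± 0.607% in wild-type ECs (SD, n = 4). *Pcdhgb6* rose by a log2 fold change of 0.95, *Pcdhgb7* by 0.52 and *Pcdhga12* by 0.31. The test of *Pcdhgb7* (adjusted p = 0.0302) was lost without mutant replicate 1 or 2 and without wild-type replicate 1 or 3, with adjusted p-values from 0.0574 to 0.0725. *Pcdhga4*, *Pcdhga8* and *Pcdhgb5* had 105, 78.2 and 171 normalized counts on average in wild-type ECs and fell, with log2 fold changes of -0.78, -0.76 and -0.76. Among the gamma genes that passed the adjusted p, the 4 that rose lie after the 3 that fell in the order of the cluster. The genes that did not pass show no such split. *Pcdhga1* (log2 fold change 0.31) lies before the 3 that fell, and *Pcdhgb8* (-0.40) lies among those that rose.

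**Figure D4:**
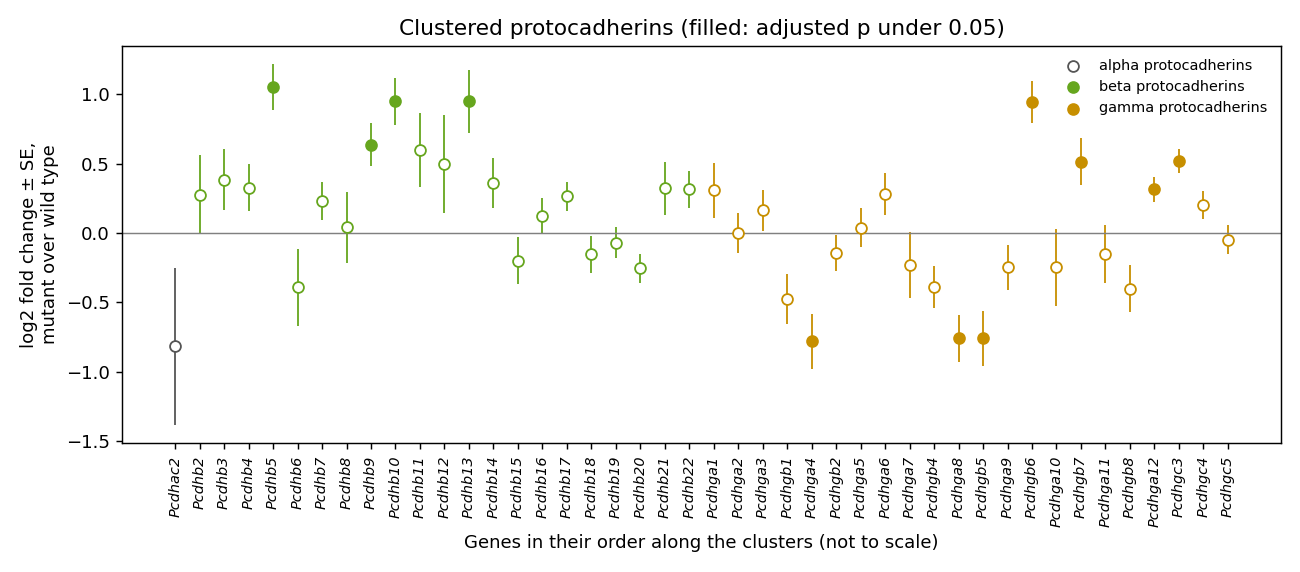
Log2 fold change of mutant over wild type with its SE (vertical axis) for the 44 clustered protocadherins in their order along chromosome 18 (horizontal axis, not to scale). Filled points have an adjusted p under 0.05: 4 beta genes, all higher, and 7 gamma genes, 4 higher and 3 lower, with the 3 lower genes before the 4 higher ones. The open gamma points do not follow this order.

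Genes around the cadherin complex were read from lists. Of 20 junction partners 19 were tested, 1 was called higher (*Pkp2*) and 1 lower (10.5% together, against 14.0% of all genes), and the median log2 fold change was -0.11. The lower gene, *Arvcf*, a relative of p120-catenin that binds the same cadherin site, had 259, 319, 373 and 185 normalized counts in mutant and 679, 648, 614 and 565 in wild-type libraries, without overlap (log2 fold change -1.15, SE 0.18, adjusted p = 0.0007). Without mutant replicate 4, the lowest library, its log2 fold change was -0.96. At the adjusted p alone 4 rose and 6 fell (52.6%, against 44.4% of all genes). The phosphatase that binds VE-cadherin, *Ptprb*, fell from 62196 to 77755 in wild-type to 35453 to 49943 in mutant libraries (log2 fold change -0.77, SE 0.12, adjusted p = 0.00061). *Nectin2*, an adhesion protein that sits beside cadherins, rose from 3119 to 4384 to 5573 to 8107 normalized counts (log2 fold change 0.75, SE 0.13, adjusted p = 0.00126).

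Other members of the cadherin superfamily, the large Fat, Dachsous and Celsr proteins and their relatives, were read in the same way. Of 17 such genes 13 were tested, with a median log2 fold change of -0.64, and at the adjusted p 1 rose and 7 fell, against 21.5% of all genes higher and 22.9% lower. *Celsr1*, a seven-pass cadherin of planar polarity, had 3377, 2090, 1923 and 2634 normalized counts in mutant and 413, 368, 324 and 282 in wild-type libraries. Every mutant library was several times every wild-type library (log2 fold change 2.85, SE 0.19, adjusted p = 3.94e-06). The genes called lower, *Fat2*, *Celsr3* and *Clstn3*, had at most 369 normalized counts in any library, overlapped between the groups and are known from neurons, with log2 fold changes of -3.08, -1.96 and -1.54. *Celsr3* lost its call in 6 of the 8 fits that left out a library, with a log2 fold change of -0.86 without wild-type replicate 3 (adjusted p = 0.156 in edgeR), and with the replicate number as a block (adjusted p = 0.0535). *Fat2* and *Clstn3* kept their calls in all 8.

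Of 6 transcription factors that repress cadherin genes 5 were tested. *Snai2* was called lower, with 104, 141, 158 and 86.0 normalized counts in mutant and 350, 394, 287 and 357 in wild-type libraries (log2 fold change -1.51, SE 0.20, adjusted p = 0.000194). *Snai1* rose by a log2 fold change of 0.94 (SE 0.14, adjusted p = 0.000526) and *Zeb1* by 0.34 (SE 0.09, adjusted p = 0.0145). So the Snail genes moved in opposite directions, and *Snai1* was past the fold limit without mutant replicate 4 (1.006) or without wild-type replicate 3 (1.01).

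The beta-catenin target genes were lower beside a *Ctnnb1* log2 fold change of -0.03. Of 10 genes 9 were tested, all 9 fell at the adjusted p (against 22.9% of all genes), 8 of them were called, and the median log2 fold change was -1.82. *Axin2*, the scaffold used most widely as a reading of Wnt signalling, had 871, 1174, 1828 and 1127 normalized counts in mutant and 3586, 3451, 3255 and 3750 in wild-type libraries, without overlap (log2 fold change -1.49, SE 0.18, adjusted p = 0.000146). *Notum* and *Nkd1*, which dampen Wnt signalling, had log2 fold changes of -2.79 and -2.62. *Apcdd1*, another inhibitor, had -1.99, and the transcription factor gene *Lef1*, a partner of beta-catenin, had -1.46. The log2 fold changes of *Sp5* and *Tnfrsf19* were both -1.82, that of *Tcf7* was -1.24, and *Znrf3*, at -0.84, was not called.

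**Figure D5:**
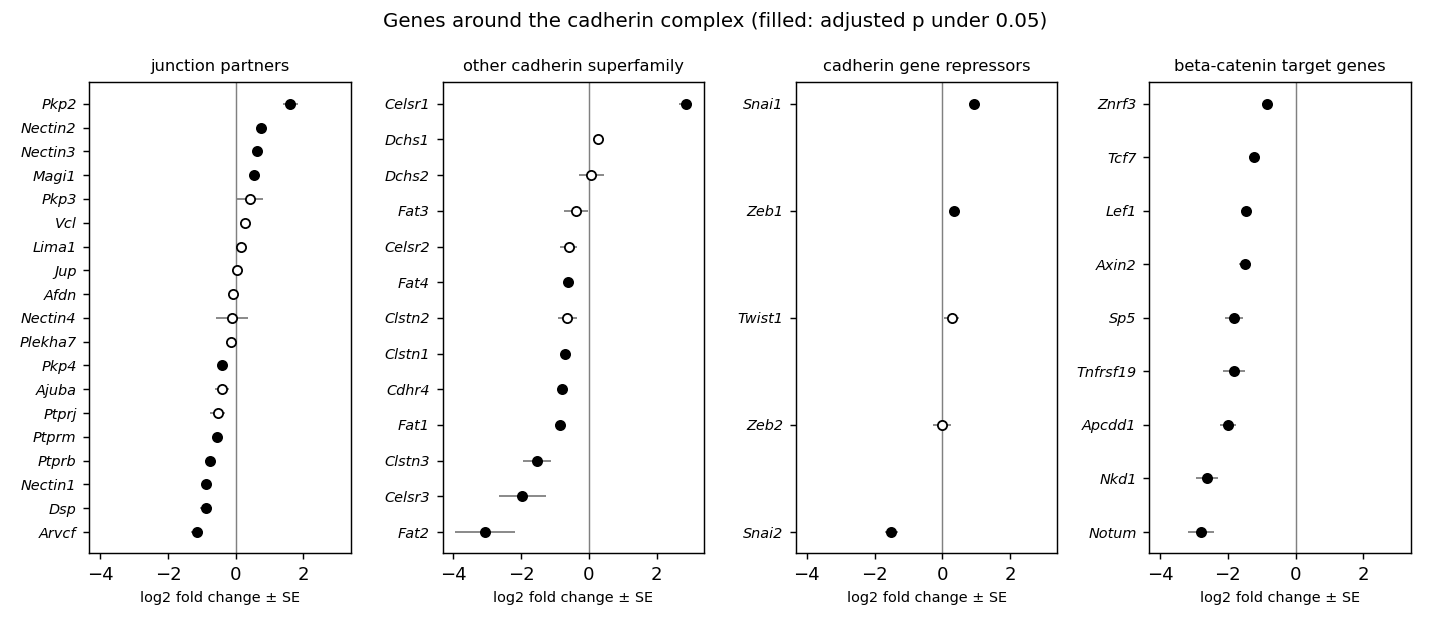
Log2 fold change of mutant over wild type with its SE (horizontal axis) for the tested genes (vertical axis) of 4 lists: junction partners (19), other cadherin superfamily (13), cadherin gene repressors (5) and beta-catenin target genes (9). Points are filled where the adjusted p is under 0.05, and all 9 beta-catenin target genes lie below 0 and are filled.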

How the data were processed

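Whole-number counts per gene for 49315 genes in 4 mutant and 4 wild-type libraries were analysed. After trimming (Trimmomatic) and alignment to GRCm38 (STAR), the authors deposited unnormalized counts, whose counting program, annotation release, strand setting and treatment of multi-mapped reads are not given in the sources used here. They also deposited a normalized signal for 16889 genes, which is the counts divided by DESeq2 size factors, and which was used only to choose the genes. Symbols came from a table of gene names, which held 48970 of the identifiers.

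The groups were compared in edgeR 4.0.16 under R 4.3.3 (TMM, filterByExpr with a minimum count of 10, glmQLFit and glmQLFTest, no covariate, Benjamini-Hochberg adjustment over all 16887 genes tested). SEs are the log2 fold change over the square root of F. Libraries are from separate pups, so p-values measure the spread between animals. RPKM used the exon length in the count files and TMM-scaled library sizes, and was not tested. The fit was tested on simulated data.

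The genes and lists were chosen with earlier results of these data known. Named genes are the *Cdh5* complex, called genes, the 5 highest by RPKM, all catenins, up to 3 per family by fold, and up to 6 called genes per list. *Pcdhgc3*, *Pcdh12*, *Pcdhgb5*, *Pcdhga12*, *Pcdhgb7*, *Pcdhb9*, *Pcdhb17*, *Pcdh18*, *Cdh24*, *Ptprb*, *Nectin2*, *Dsp*, *Jup*, *Snai1*, *Zeb1*, *Znrf3*, *Tcf7*, *Lef1*, *Gja1* and *Nefl* were named after their values were seen. The alternatives were DESeq2 1.42.0, other scalings and filters, blocks for the replicate number or label code, glmTreat and each library left out.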

Additional observations from a re-analysis of the deposited data

Results flagged for a closer look

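Each of 46 named genes was read for a library far from the other 3 of its group, and 5 of 92 groups held such a library, where chance gives about 1 in 20. In mutant replicate 4 *Cdh15* had 36.5 normalized counts, and the nearest mutant library had 65.1. In mutant replicate 3 *Ctnna3* had 18.8 and the nearest library 6.95. Wild-type replicate 3 was the far library in the other 3 groups, with 463 normalized counts of *Cdh24* (nearest 388), 210 of *Ctnnal1* (nearest 109) and 100 of *Pcdh15* (nearest 43.2). In wild-type replicate 3 the neuron markers also had their highest sum, 2700 normalized counts. So did the choroid plexus and ependyma (18384), microglia (16539) and smooth muscle markers (6903). The oligodendrocyte lineage markers were highest in wild-type replicate 1 (9981). The part of other cells in these values was not tested.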

How the results depend on the processing

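Under the alternatives that left no library out and had no larger fold to pass, 7 to 8 genes were called higher and 13 lower. Leaving out each library in turn gave 6 to 10 higher and 11 to 15 lower, and 17 to 21 higher and 15 to 18 lower at the adjusted p alone. When the test asked for a log2 fold change beyond 1 itself (glmTreat), 5 genes were called higher and 4 lower. The controls were picked at random within litters, as many as there were mutant pups, but the labels do not say that a replicate number or code marks a litter. Each code holds as many mutant as wild-type libraries, so the main fit may leave out a pairing by litter. Same-numbered libraries correlated at 0.20, 0.21, 0.29 and 0.02, not over 0.1 in every pair. Not every library correlated best with its own number (0.38 for mutant replicate 4 with wild-type replicate 3), so the fit without a block was kept. This check went by number and does not decide on the label code. Mutant replicates 1 and 2 correlated at 0.17 to 0.25 with wild-type replicates 1 and 2, which share their code. Mutant replicate 3 correlated best with wild-type replicate 3 (0.29). With the replicate number as a block, 8 genes were called higher and 13 lower, and 20 and 20 passed the adjusted p. With the label code as a block it was 8 and 13 called, and 21 higher and 20 lower at the adjusted p.

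Of 690 values over 46 genes, 653 kept their direction and side of the adjusted p limit, 15 passed it only under the alternative, 20 lost it and 2 turned. *Cdh23* (0.13) was -0.19 without mutant replicate 4 and otherwise up to 0.29, and *Cdh26* (-0.25) was 0.043 without mutant replicate 1 and otherwise down to -0.46. The log2 fold change of *Cdh6* came to -0.999 without mutant replicate 1, and the test of *Ctnnbl1* was lost in 8 alternatives. Upper quartile scaling moved the median of all genes to -0.09. Exon bases shared on either strand were also left out of the length, an alternative chosen after the data were seen. The wild-type levels were then 59.3 RPKM in place of 19.6 for *Pcdhgc3* and 31.3 in place of 12.1 for *Ctnnd1*. They were 336 in place of 285 for *Ctnnb1* and 40.5 in place of 30.03 for *Ctnnbip1*. For *Ctnnd1* all the sharing was on the same strand, for *Ctnnbip1* none. *Pcdhga10*, with 100% shared on either strand and 44.8% on the same strand, still had 33.6 to 69.4 normalized counts over the libraries. Such bases were therefore not all left uncounted. Genes with few counts, such as *Dsc2*, *Pcdh11x* and *Cdh20*, are limited by counting error as well as by the spread between pups.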

Other observations

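Among the cadherins without a call, *Cdh23*, which pairs with *Pcdh15* in the tip links of hair cells, had 40.8 to 99.8 normalized counts in mutant and 51.5 to 64.7 in wild-type libraries (log2 fold change 0.13, SE 0.29, adjusted p = 0.736), while *Pcdh15* itself was called lower. *Cdh26* had 20.2, 76.1, 69.6 and 48.6 against 57.9, 71.3, 50.9 and 75.7 normalized counts (log2 fold change -0.25, SE 0.34, adjusted p = 0.589). *Cdh17*, which was not tested, had 6.31 to 17.4 against 4.69 to 13.8 normalized counts.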
